A study of Caenorhabditis elegans with 15 samples.

Results

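The genes described here encode the core of the Notch pathway of Caenorhabditis elegans: the receptors glp-1 and lin-12, the ligands lag-2 and apx-1, the nuclear partners lag-1 and sel-8, and lst-1, a gene switched on by the germline receptor. They were chosen by name, and all 7 were found among the 42048 genes of the deposited tables. RNA was sequenced from whole worms on adult day 1, in 15 libraries that form 5 groups of 3. Of these groups, 4 were strain SHU47, labelled with the genotype glp-1 and described by the submitters as lacking a germline, fed RNAi bacteria against hlh-30, atg-2 or atg-18 or fed luc RNAi as the control. The remaining group was strain TU3401 on luc RNAi, with no genotype entered. TU3401 is known as a sid-1 mutant in which the double-stranded RNA channel SID-1 is restored in neurons, so that feeding RNAi acts mainly there, and the labels call the 3 gene knockdowns neuronal. The labels do not name the glp-1 allele, do not say which transgenes SHU47 carries, and do not tell if the 3 libraries of a group are separate cultures. If they are not, the p-values measure a technical spread only.

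In Notch signalling, a ligand on one cell binds a receptor on its neighbour. The receptor is cleaved and its inner part enters the nucleus, where it joins the DNA-binding protein LAG-1 and the Mastermind-like coactivator SEL-8 (also called LAG-3) to switch on target genes. In the worm gonad, LAG-2 on the distal tip cell signals to GLP-1 on germ cells and keeps them in mitosis. GLP-1 also acts in the early embryo, where APX-1 is a maternally supplied ligand, while LIN-12 is best known for cell fate decisions in the somatic gonad and the vulva.

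Levels are given in RPKM, reads scaled by gene length and library depth, so levels of different genes can be compared per length. The whole reads behind each value could be recovered from the RPKM steps. Depth, as reads counted to genes, was 17496624 to 25599148 reads per library. The gene lengths that the steps give are the coding lengths of the current annotation for 6 of the 7 genes (lst-1 has 1197 bases against 987), so the values of those genes describe coding parts of their transcripts, without untranslated regions. The germline content of the worms moved with the strain: 12 germline markers summed to 0.781 to 1.62% of their TU3401 mean across the 3 glp-1 luc libraries, and 9 oocyte markers to 0.0809 to 0.916%. Markers of early embryos (8 genes) summed to 0.303 to 0.816 RPKM in glp-1 luc worms and to 28.7 to 32.4 RPKM in TU3401 worms. In bulk RNA of this kind, fewer cells of a type and less RNA per cell cannot be told apart. The level of a gene does not test the label glp-1 either, because RNA of a mutated allele is counted as well. The knockdown labels could not be borne out from RNA levels. Whole-worm RNA pools neurons with the other tissues, so a knockdown limited to neurons cannot be judged from these levels. The hlh-30 transcript was at 126, 293 and 328 RPKM in the libraries labelled hlh-30 RNAi, against 54.6, 44.5 and 50.9 RPKM in glp-1 luc. For atg-2, the libraries labelled atg-2 RNAi held 43.1, 39.4 and 38 RPKM, against 34.7, 26.6 and 28.9 RPKM in glp-1 luc. For atg-18, the libraries labelled atg-18 RNAi held 49.1, 81.3 and 116 RPKM, against 78.5, 68.8 and 70.1 RPKM in glp-1 luc. The names hlh-30 RNAi, atg-2 RNAi and atg-18 RNAi therefore stand for libraries so labelled, and no direction given for them rests on a lowered target transcript.

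**Figure D1:**
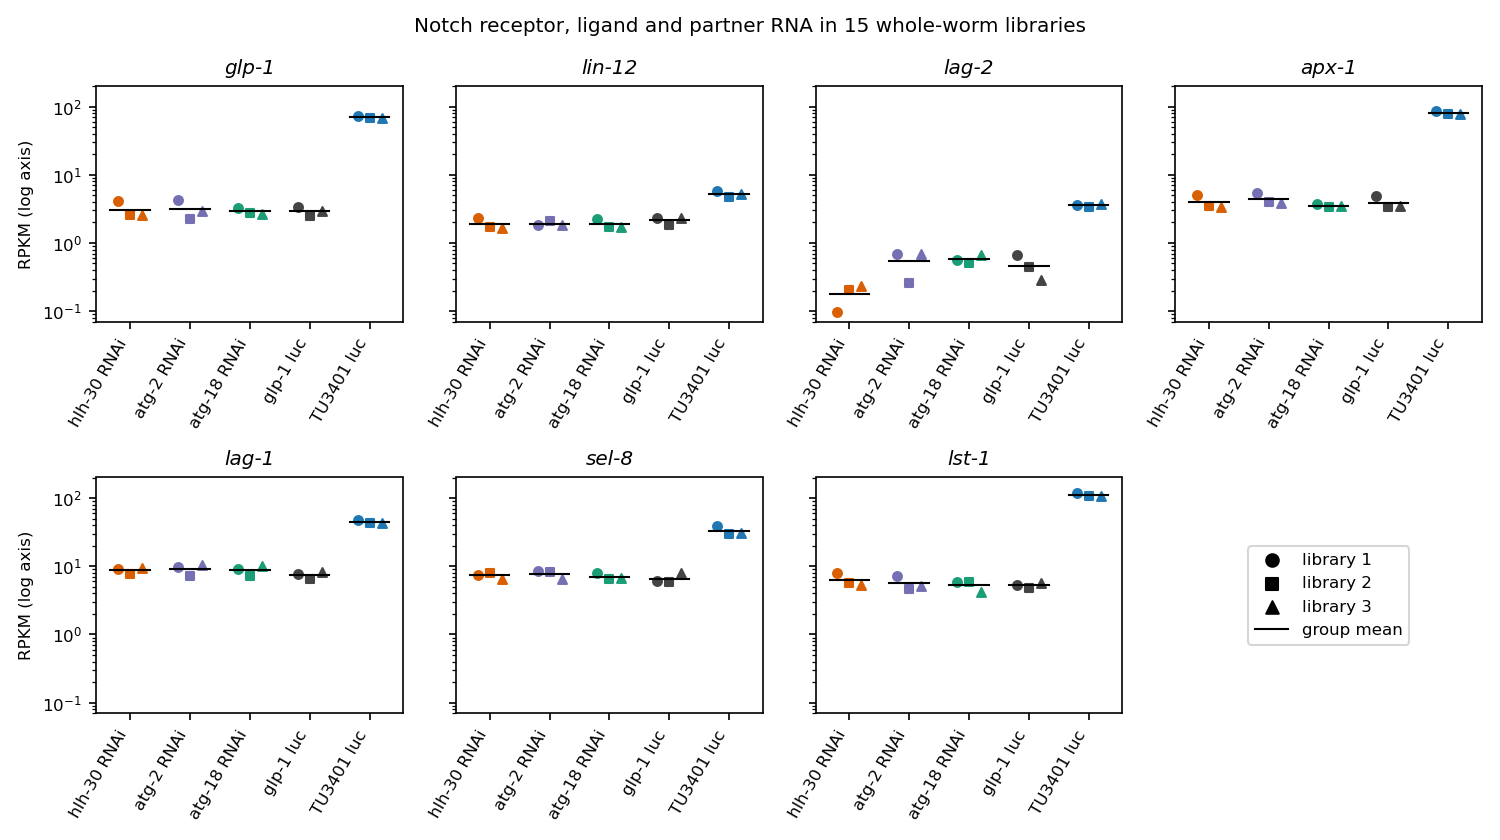
RPKM of each gene (log axis) in the 15 libraries, by group; points are libraries 1 to 3 and the bar is the group mean. Every glp-1 library lies below every TU3401 library for all 7 genes, and the hlh-30 RNAi libraries are the 3 lowest of the 12 glp-1 libraries for lag-2.

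The first comparison asked how the pathway's RNA differed between glp-1 luc and TU3401 luc worms. All 7 genes were lower in glp-1 luc, by unequal amounts: glp-1, apx-1 and lst-1 kept 4.25 to 4.82% of their TU3401 level, lag-2 kept 12.8%, lag-1 and sel-8 kept 16.9 and 20.0%, and lin-12 kept 40.7%. Each gene passed the test (limma on log2(RPKM + 1), adjusted p under 0.05 over all genes). That result has to be read against the genome: 12175 of 13569 tested genes passed (89.7%), 48.3% of all tested genes were lower, and in 90.2% the 2 groups did not overlap. The median difference over all genes was -0.19 on the log2 scale, and -1.55 when libraries were scaled on neuron and muscle genes; the 7 differences were below the median on both scales. That scaling rests mostly on muscle genes, which summed to 8580 to 10465 RPKM in glp-1 luc, against 749 to 895 RPKM for neuron genes. After it, 6 of 11 neuron genes were called lower and 0 higher, and of 11 muscle genes 6 were higher and 2 lower.

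Of the receptors, glp-1 had 3.37, 2.52 and 2.98 RPKM in glp-1 luc libraries, against 73.7, 67.9 and 67.3 RPKM in TU3401 libraries. The groups were far apart, and the 184 to 270 reads per glp-1 luc library show that glp-1 RNA was still detected. Group means were 2.96 ± 0.426 RPKM in glp-1 luc and 69.6 ± 3.53 RPKM in TU3401 luc (SD, n = 3 libraries each), a 23.5-fold lower mean. The difference of log2(RPKM + 1) was -4.16 ± 0.098 (SE; limma adjusted p = 4.03e-08), and 5.65% of tested genes had a lower one. The other receptor, lin-12, had 2.30, 1.83 and 2.29 RPKM in glp-1 luc libraries, against 5.81, 4.69 and 5.27 RPKM in TU3401 libraries. It fell least of the 7: its difference was -0.996 ± 0.124 (SE; limma adjusted p = 0.000147), and 40.1% of tested genes had a lower one. In each glp-1 luc library the receptors were thus at similar levels, with a glp-1 to lin-12 ratio of 1.38 ± 0.0842, whereas in TU3401 luc the ratio was 13.3 ± 1.02 (SD, n = 3 each). The ratios did not overlap; an exact two-sided permutation test gave p = 0.1, the smallest that 3 libraries against 3 can reach, and 0.14 after adjustment over the 7 ratios tested.

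The ligands also differed in how much remained. The distal tip cell ligand lag-2 had 0.655, 0.441 and 0.284 RPKM in glp-1 luc libraries, against 3.64, 3.36 and 3.75 RPKM in TU3401 libraries. These are thin values in glp-1 luc, resting on 16, 10 and 8 reads, against 104, 87 and 116 reads in TU3401. The difference was -1.66 ± 0.143 (SE; limma adjusted p = 1.70e-05); lag-2 passed the filter of a mean of 1 RPKM only through TU3401 and so had to differ, and with the added 1 RPKM this log2 value understates the 7.78-fold lower mean. The maternal ligand apx-1 had 4.80, 3.38 and 3.46 RPKM in glp-1 luc libraries, against 86.8, 76.6 and 77.9 RPKM in TU3401 libraries. It ranked beside glp-1: the difference was -4.07 ± 0.124 (SE; limma adjusted p = 7.67e-08), the mean was 20.7-fold lower, and 6.08% of tested genes had a lower difference. The ratio of apx-1 to lag-2 was 9.06 ± 2.73 in glp-1 luc and 22.5 ± 1.57 in TU3401 luc, again without overlap (exact permutation p = 0.1, adjusted 0.14).

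Markers of the somatic gonad, the tissue that holds the distal tip cell, did not all go the way of lag-2. Summed over 8 genes they stood at 183 to 193% of their TU3401 mean in the glp-1 luc libraries. Most of that sum of 242 to 256 RPKM was inx-8, at 178 RPKM on average. The median gene of the 8 stood at 185 to 197%. In the same libraries muscle markers summed to 345 to 421% and neuron markers to 110 to 132% of their TU3401 means. Of 7 somatic gonad genes tested, 5 were higher and 1 was lower, beside 89.7% of all tested genes called. The distal tip cell gene hlh-12 had 2.19 ± 0.650 RPKM in glp-1 luc and 0.369 ± 0.130 RPKM in TU3401 luc (SD, n = 3 each), on 63 and 12 reads in all. It passed the filter only through glp-1 luc and so had to differ. The 1 lower gene was hnd-1, a transcription factor of gonad precursors, with 0 reads in the 3 glp-1 luc libraries and 475 reads in the 3 TU3401 libraries, and it passed the filter only through TU3401. The untested gene ehn-3 had 0 reads in the 3 glp-1 luc libraries and 8 reads in the 3 TU3401 libraries. What part gonad or embryo RNA had in the lag-2 difference was not tested. On libraries scaled to neuron and muscle genes, 1 of the 8 somatic gonad genes was higher and 4 were lower.

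The nuclear partners fell less than glp-1 and by similar amounts. The DNA-binding protein gene lag-1 had 7.68, 6.59 and 8.33 RPKM in glp-1 luc libraries, against 47.0, 43.2 and 43.5 RPKM in TU3401 libraries. Its coactivator sel-8 had 6.02, 5.79 and 7.98 RPKM in glp-1 luc libraries, against 38.3, 29.6 and 30.8 RPKM in TU3401 libraries. Neither gene's groups overlapped. The difference was -2.42 ± 0.094 for lag-1 (SE; limma adjusted p = 2.12e-07) and -2.16 ± 0.144 for sel-8 (SE; limma adjusted p = 3.84e-06), and 19.4 and 23.0% of tested genes had lower ones. The lag-1 to sel-8 ratio was 1.15 ± 0.117 in glp-1 luc and 1.37 ± 0.124 in TU3401 luc (SD, n = 3 each), with overlapping values (exact permutation p = 0.2, adjusted 0.233). M03D4.3, on the opposite strand, shares exon sequence with lag-1 outside its coding part and reached 32.4 RPKM.

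The target gene lst-1, which acts with sygl-1 to hold germ cells in the stem cell state, had the highest level of the 7 in TU3401. It stood at 5.33, 4.77 and 5.70 RPKM in glp-1 luc libraries, against 117, 108 and 107 RPKM in TU3401 libraries. Its difference of -4.16 ± 0.080 (SE; limma adjusted p = 3.36e-08) was close to that of the receptor, and the lst-1 to glp-1 ratio was 1.79 ± 0.185 in glp-1 luc and 1.59 ± 0.0019 in TU3401 luc (SD, n = 3 each; exact permutation p = 0.4, adjusted 0.4). The lowest glp-1 luc ratio lay below the TU3401 ratios, so the groups overlapped. Its partner target sygl-1 kept 0.415% of its TU3401 level, with 0.726 RPKM in glp-1 luc and 175 RPKM in TU3401 luc on average. Of its 28 reads in glp-1 luc, 23 were in library 1, which also held the most germline RNA of that group; without it the mean was 0.173 RPKM, or 0.0987% of the TU3401 level. Per library, sygl-1 was at 0.135 ± 0.183 of the lst-1 level in glp-1 luc and at 1.58 ± 0.0539 of it in TU3401 luc, without overlap (SD, n = 3 each; exact permutation p = 0.1, adjusted 0.14). The glp-1 luc ratios ran from 0 to 0.344, and without library 1 their mean was 0.0303.

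**Figure D2:**
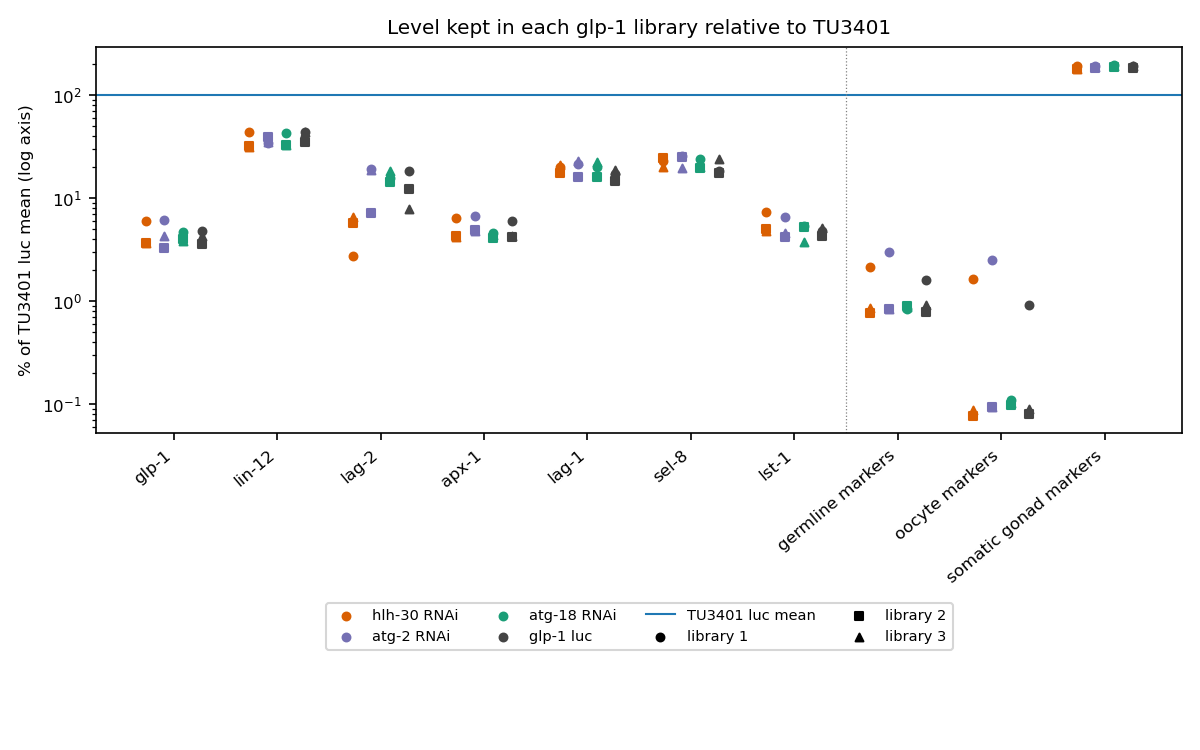
Level in each of the 12 glp-1 libraries as a percentage of the TU3401 luc mean (log axis), for the 7 genes and, right of the dotted line, for summed germline, oocyte and somatic gonad markers. The genes lie between 2.73% and 43.7%, above every summed germline marker value except in lag-2, where the lowest library lies below the highest germline value of 3.03%.

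The order of the levels was different in the 2 strains. In TU3401 luc it ran lst-1, apx-1, glp-1, lag-1, sel-8, lin-12, lag-2, with means of 111, 80.4, 69.6, 44.6, 32.9, 5.26 and 3.58 RPKM, and no gene's libraries overlapped those of the next gene. In glp-1 luc it ran lag-1, sel-8, lst-1, apx-1, glp-1, lin-12, lag-2, with means of 7.53, 6.59, 5.27, 3.88, 2.96, 2.14 and 0.460 RPKM. There, lag-1 overlapped sel-8 and lst-1 overlapped apx-1, and the other neighbours did not overlap. Of the summed RPKM of the 7 genes, glp-1, apx-1 and lst-1 made up 10.3, 13.5 and 18.3% in glp-1 luc, against 20.1, 23.2 and 31.9% in TU3401 luc. The nuclear partners lag-1 and sel-8 made up 26.1 and 22.9% in glp-1 luc, against 12.9 and 9.46% in TU3401 luc.

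The rest of the pathway was described with 48 further genes in 5 lists. Of these, 37 were tested between glp-1 luc and TU3401 luc: 2 were higher, 32 were lower and 3 (osm-7, sel-2 and sel-7) did not pass, beside 89.7% of all tested genes called and 48.3% lower. Of the 37, 10 were under 1 RPKM in glp-1 luc and passed the filter through TU3401, as did 1562 of all 13569 genes tested. Their median difference was -2.36, beside -0.19 over all genes; scaled on neuron and muscle genes, 38 were tested, of which 0 were higher and 37 lower, with a median of -3.77. Among 7 tested ligand genes outside the 7 members, 5 were lower and 1 higher. The DSL-family genes dsl-2 and dsl-3 fell by 5.07 and 3.63 on the log2 scale, and the dsl-2 reads in glp-1 luc were all in library 1. By ratio of means, dsl-6 (187-fold) and dsl-1 (64.6-fold) fell more than dsl-3 (25.8-fold), on 2 and 8 reads in glp-1 luc. Of the 7 ligand genes, 4 were under 1 RPKM in glp-1 luc and passed the filter through TU3401. The secreted co-ligand osm-11 was higher, at 1083 RPKM in glp-1 luc and 303 RPKM in TU3401 luc, a difference of 1.84 that was 0.15 and did not pass on scaled libraries.

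All 7 genes that cleave the receptor were tested and all were lower, as were 48.3% of all tested genes. Among them are the ADAM protease sup-17, the presenilins sel-12 and hop-1, and the other γ-secretase subunits, of which pen-2 fell by 2.99. The 2 presenilin genes, compared after their values were seen, kept different shares: hop-1 averaged 0.598 RPKM in glp-1 luc and 45.8 RPKM in TU3401 luc (log2 difference -4.88), and sel-12 averaged 7.91 RPKM in glp-1 luc and 21.7 RPKM in TU3401 luc (-1.35). Of the 7 cleavage genes, 1 (hop-1) passed the filter only through TU3401 and so had to differ. The hop-1 to sel-12 ratio was 0.0761 ± 0.0342 in glp-1 luc and 2.11 ± 0.0908 in TU3401 luc, without overlap (SD, n = 3 each; exact permutation p = 0.1, adjusted 0.14). Of 9 genes for receptor traffic and turnover, 7 were lower (48.3% of all tested genes were), led by the tetraspanin tsp-12 (-3.03) and the F-box gene sel-10 (-2.60), which acts in turnover of the receptor's inner part.

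Among the target genes, 8 of 13 were tested, and 7 were lower, beside 48.3% of all tested genes. On the log2(RPKM + 1) scale these 7 were led by sygl-1 (-6.81) and the MAP kinase phosphatase lip-1 (-3.17). By ratio of means, ref-1 (11.4-fold) fell slightly more than lip-1 (10.2-fold). Of the 8 tested, 2, sygl-1 among them, passed the filter only through TU3401 and so had to differ. The lateral signalling target lst-2 was higher by 0.38, with 21.8 RPKM in glp-1 luc and 16.5 RPKM in TU3401 luc, and was lower by the scaled values (-1.25). The untested ones include hlh-25, hlh-27, hlh-28 and hlh-29, closely related genes among which reads may be split. All 6 genes that act downstream in germ cell fate were lower, beside 48.3% of all tested genes, and 3 of the 6 passed the filter only through TU3401. On the log2(RPKM + 1) scale the 6 were led by the RNA-binding proteins gld-1 (-7.65) and gld-3 (-6.58). The added 1 RPKM shrinks the differences of genes near 0 RPKM. By ratio of means, fbf-1 was 384-fold lower, gld-3 266-fold and gld-1 228-fold. Library 1 of glp-1 luc held 163 of the 211 gld-1 reads and 75 of the 94 gld-3 reads of its group, and without it the differences were -8.29 and -6.90. The near-identical genes fbf-1 and fbf-2 averaged 0.0454 and 0.491 RPKM in glp-1 luc, against 17.4 and 9.61 RPKM in TU3401 luc. Of the 5 fbf-1 reads in glp-1 luc, 4 were in library 1, without which its mean was 0.0145 RPKM; the sources used here do not tell how counting split reads between them.

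**Figure D3:**
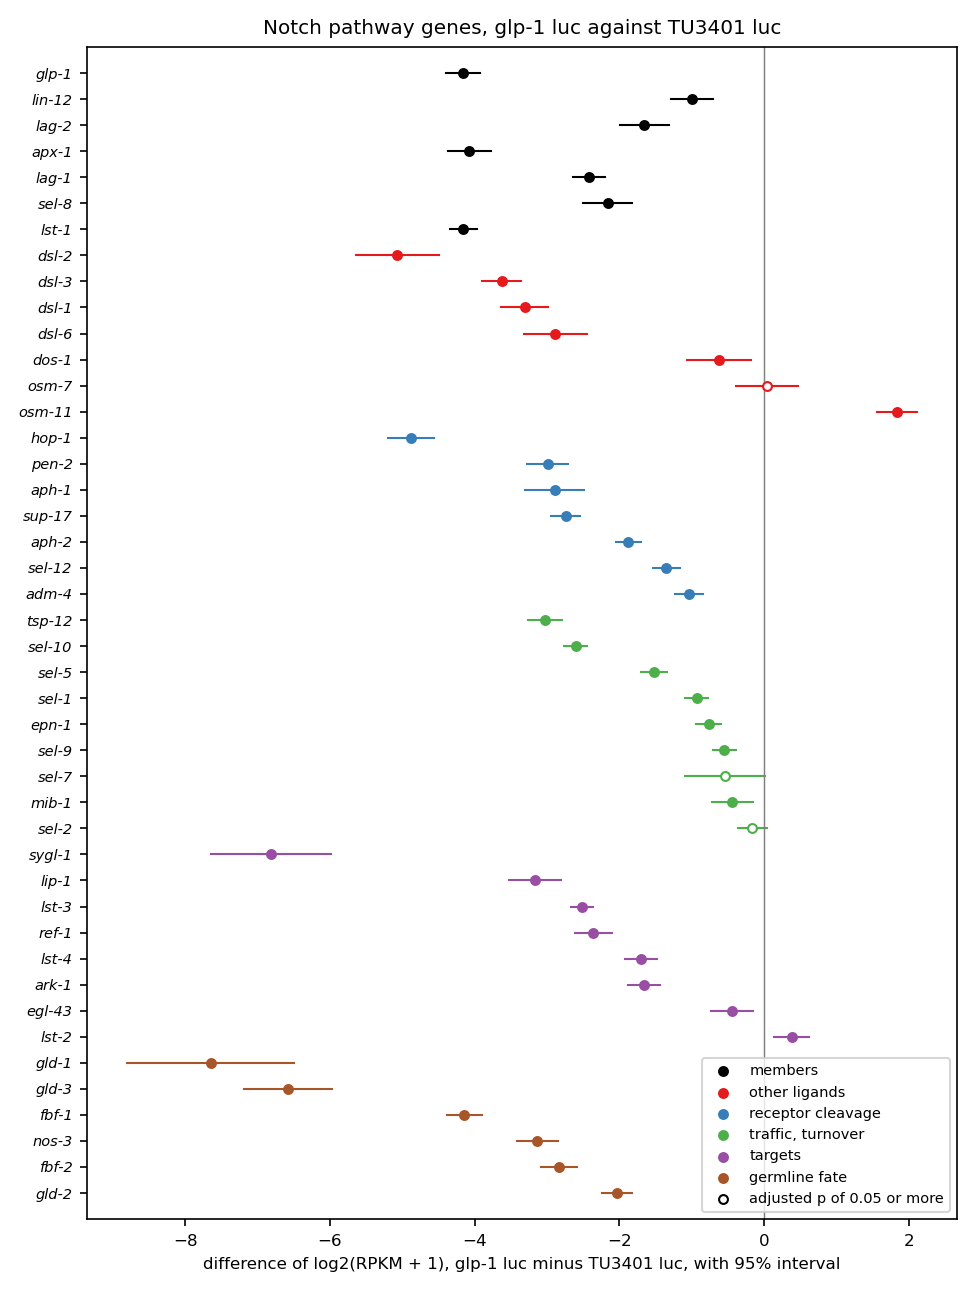
Difference of log2(RPKM + 1), glp-1 luc minus TU3401 luc, with its 95% interval, for the 7 genes and the 37 tested genes of the 5 pathway lists; open points did not pass an adjusted p of 0.05. Most points lie left of 0, and osm-11 at 1.84 and lst-2 at 0.38 are the filled points right of it.

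The authors' deposited table of this comparison gave log2 fold changes of -4.36 for glp-1, -1.10 for lin-12, -2.78 for lag-2, -4.18 for apx-1, -2.37 for lag-1, -2.12 for sel-8 and -4.20 for lst-1. The false discovery rates in the authors' deposited table lay between 1.00e-16 for lst-1 and 8.27e-07 for lin-12. No source used here names the authors' test.

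The next comparisons asked whether the pathway's RNA differed between glp-1 worms given RNAi labelled hlh-30, atg-2 or atg-18 and glp-1 worms on luc. None of the 6 testable genes passed in any of the 3, and lag-2 was below the filter. Few genes passed at all: 11 of 12494 for hlh-30 RNAi (0.088%), 0 of 12548 for atg-2 RNAi (0%) and 0 of 12441 for atg-18 RNAi (0%). At an unadjusted p under 0.05, limma gave 1187, 961 and 850 genes in that order of groups. The 3 comparisons share the glp-1 luc libraries.

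For glp-1, hlh-30 RNAi libraries held 4.15, 2.53 and 2.57 RPKM, atg-2 RNAi libraries 4.30, 2.27 and 2.98 RPKM, and atg-18 RNAi libraries 3.26, 2.78 and 2.67 RPKM, against 3.37, 2.52 and 2.98 RPKM in glp-1 luc. All these groups overlapped. The 95% intervals of the log2 difference from glp-1 luc were -0.40 to 0.46 for hlh-30 RNAi, -0.41 to 0.52 for atg-2 RNAi and -0.32 to 0.29 for atg-18 RNAi. For lin-12, group means were 1.89 ± 0.349 RPKM in hlh-30 RNAi, 1.91 ± 0.135 RPKM in atg-2 RNAi, 1.89 ± 0.298 RPKM in atg-18 RNAi and 2.14 ± 0.269 RPKM in glp-1 luc (SD, n = 3 each). Its differences were -0.12, -0.11 and -0.12, with limma adjusted p of 0.867, 0.945 and 0.898.

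For apx-1, means were 3.98 ± 0.984 RPKM in hlh-30 RNAi, 4.38 ± 0.852 RPKM in atg-2 RNAi, 3.52 ± 0.194 RPKM in atg-18 RNAi and 3.88 ± 0.797 RPKM in glp-1 luc (SD, n = 3 each). For lag-1, they were 8.68 ± 0.817, 9.04 ± 1.61 and 8.75 ± 1.43 RPKM in hlh-30, atg-2 and atg-18 RNAi, and 7.53 ± 0.881 RPKM in glp-1 luc. The lag-1 mean was the lowest in glp-1 luc, but single libraries overlapped; the differences were 0.18, 0.23 and 0.19, with limma adjusted p of 0.673, 0.805 and 0.819. For sel-8, means were 7.36 ± 0.743, 7.70 ± 1.06 and 6.99 ± 0.746 RPKM in hlh-30, atg-2 and atg-18 RNAi, and 6.59 ± 1.20 RPKM in glp-1 luc. For lst-1, they were 6.31 ± 1.50, 5.68 ± 1.38 and 5.33 ± 1.01 RPKM in hlh-30, atg-2 and atg-18 RNAi, and 5.27 ± 0.468 RPKM in glp-1 luc. For apx-1 and lst-1, the larger SD of the groups compared exceeded each difference in means from glp-1 luc. Over the 6 genes and 3 comparisons, the 95% intervals of the log2 difference lay between -0.49 and 0.57, and differences within those bounds could not be told from 0 with these libraries.

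**Figure D4:**
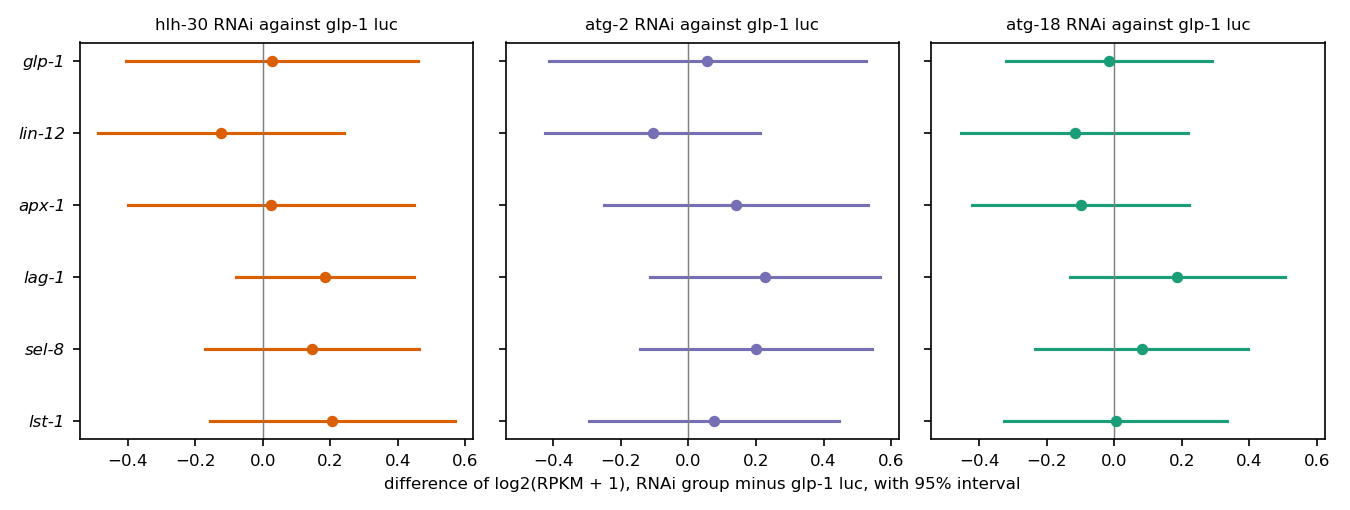
Difference of log2(RPKM + 1) from glp-1 luc, with its 95% interval, for the 6 tested genes in each RNAi group. Every interval includes 0, and the points lie between -0.12 and 0.23.

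The ligand lag-2 was below the filter and is described by its raw values. It had 0.0978, 0.205 and 0.236 RPKM in the libraries labelled hlh-30 RNAi, against 0.655, 0.441 and 0.284 RPKM in glp-1 luc. In atg-2 RNAi libraries it had 0.693, 0.256 and 0.679 RPKM, and in atg-18 RNAi libraries 0.564, 0.514 and 0.658 RPKM. The libraries labelled hlh-30 RNAi, in which no library had less hlh-30 RNA than glp-1 luc, were the lowest 3 of the 12 glp-1 libraries and overlapped no other group, while the other 3 groups overlapped each other. The values rest on 3, 5 and 5 reads in hlh-30 RNAi, against 16, 10 and 8 reads in glp-1 luc, 20, 7 and 19 reads in atg-2 RNAi and 15 reads in each atg-18 RNAi library. Per read counted to genes, the rate in hlh-30 RNAi was 0.378 of that in glp-1 luc, with an exact 95% interval of 0.183 to 0.735 that covers counting error only. Groups that did not overlap in the lower direction were common, at 8.24% of tested genes in this comparison. Those genes averaged at least 1 RPKM, which lag-2 did not, so that share is no matched background for it. How many genes had 1 group below all other glp-1 libraries was not computed. With the filter on low values removed, the difference was -0.30 on the log2(RPKM + 1) scale and did not pass (limma adjusted p = 0.737). The authors' deposited table gave lag-2 a log2 fold change of -1.34 with an unadjusted p of 0.0321 and a false discovery rate of 1. The distal tip cell gene hlh-12 was at 2.57 ± 0.524 RPKM in hlh-30 RNAi and 2.19 ± 0.650 RPKM in glp-1 luc (SD, n = 3 each), on 18 to 34 and 15 to 31 reads.

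In direct contrasts between the RNAi groups, fitted over the 12 glp-1 libraries, none of the 6 tested genes passed. The share of all 12460 genes that passed was 1.01% for hlh-30 against atg-2 RNAi, 1.02% for hlh-30 against atg-18 RNAi and 0.0161% for atg-2 against atg-18 RNAi. The largest difference among the 6 genes was that of apx-1 between atg-2 and atg-18 RNAi. Its libraries held 5.36, 3.92 and 3.85 RPKM in atg-2 RNAi, against 3.70, 3.32 and 3.53 RPKM in atg-18 RNAi, and did not overlap, as held in the higher direction for 3.02% of tested genes. The difference was 0.24 (95% interval -0.12 to 0.60; limma adjusted p = 0.999). For lag-2, the rate per read in hlh-30 RNAi was 0.312 of that in atg-2 RNAi (exact 95% counting interval 0.155 to 0.588) and 0.298 of that in atg-18 RNAi (0.147 to 0.562). Libraries that were all lower, as for lag-2, made up 8.27% of tested genes in the contrast with atg-2 RNAi and 6.85% in that with atg-18 RNAi. Both shares cover only genes above the filter, which lag-2 was not. Without the filter the lag-2 differences were -0.38 and -0.42 and did not pass (limma adjusted p = 0.395 and 0.394).

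The libraries numbered 1 of hlh-30 RNAi, atg-2 RNAi and glp-1 luc stood apart from the other 9 glp-1 libraries in germline RNA. Their oocyte markers summed to 121, 182 and 67.3 RPKM, against 5.68 to 8.03 RPKM in the other 9, and their germline markers to 26.4, 37.3 and 19.9 RPKM, against 9.48 to 11.2 RPKM. The same 3 libraries held the 3 highest values of glp-1 (4.15, 4.30 and 3.37 RPKM) and of apx-1 (5.12, 5.36 and 4.80 RPKM) among the 12. For lst-1, the 2 highest values were in the hlh-30 and atg-2 RNAi libraries of the 3 (8.04 and 7.25 RPKM), while the glp-1 luc library ranked seventh. The other genes were not ordered in this way.

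The gap between library 1 and the mean of libraries 2 and 3 of its group can be given as a share of the TU3401 mean. For glp-1 this excess was 2.29% in hlh-30 RNAi, 2.41% in atg-2 RNAi, 0.772% in atg-18 RNAi and 0.896% in glp-1 luc. For the oocyte markers it was 1.56% in hlh-30 RNAi, 2.39% in atg-2 RNAi, 0.00922% in atg-18 RNAi and 0.831% in glp-1 luc. For apx-1 it was 2.12% in hlh-30 RNAi, 1.83% in atg-2 RNAi, 0.348% in atg-18 RNAi and 1.71% in glp-1 luc. In the same order of groups, it was 2.34, 2.13, 0.870 and 0.0942% for lst-1. It was 11.5, -2.98, 9.81 and 4.53% for lin-12, and -3.44, 6.30, -0.602 and 8.18% for lag-2. It was 0.947, 2.07, 0.954 and 0.496% for lag-1, and 0.613, 3.14, 3.89 and -2.64% for sel-8. On this scale, gaps above the largest of glp-1 also occurred for lin-12, lag-2 and sel-8, which kept more of their TU3401 level. The ratio of library 1 to the mean of libraries 2 and 3 does not depend on that level. In hlh-30 RNAi, atg-2 RNAi and glp-1 luc it was 1.63, 1.64 and 1.23 for glp-1 and 1.50, 1.38 and 1.40 for apx-1. It was 1.47, 1.48 and 1.02 for lst-1 and 1.36, 0.920 and 1.12 for lin-12. It was 0.443, 1.48 and 1.81 for lag-2, 1.05, 1.11 and 1.03 for lag-1, and 1.03, 1.14 and 0.874 for sel-8. The part of the remaining germline RNA in these values was not tested.

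In the 8 glp-1 libraries numbered 2 or 3, the oocyte markers stood at 0.0772 to 0.103% of their TU3401 level and the germline markers at 0.771 to 0.915%. In the same 8 libraries, glp-1 stood at 3.26 to 4.28%, apx-1 at 4.13 to 4.87% and lst-1 at 3.77 to 5.29%. For lag-1 and sel-8 the ranges were 14.8 to 23.0% and 17.6 to 25%, and lin-12 stood at 31.7 to 43.5%. The levels of these 6 genes were above the summed marker levels in every one of the 8 libraries. The median marker gene stood lower than the sums, at 0.119 to 0.565% for germline and 0.0167 to 0.0577% for oocyte markers. Which cells held the remaining RNA of the 6 genes was not tested.

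**Figure D5:**
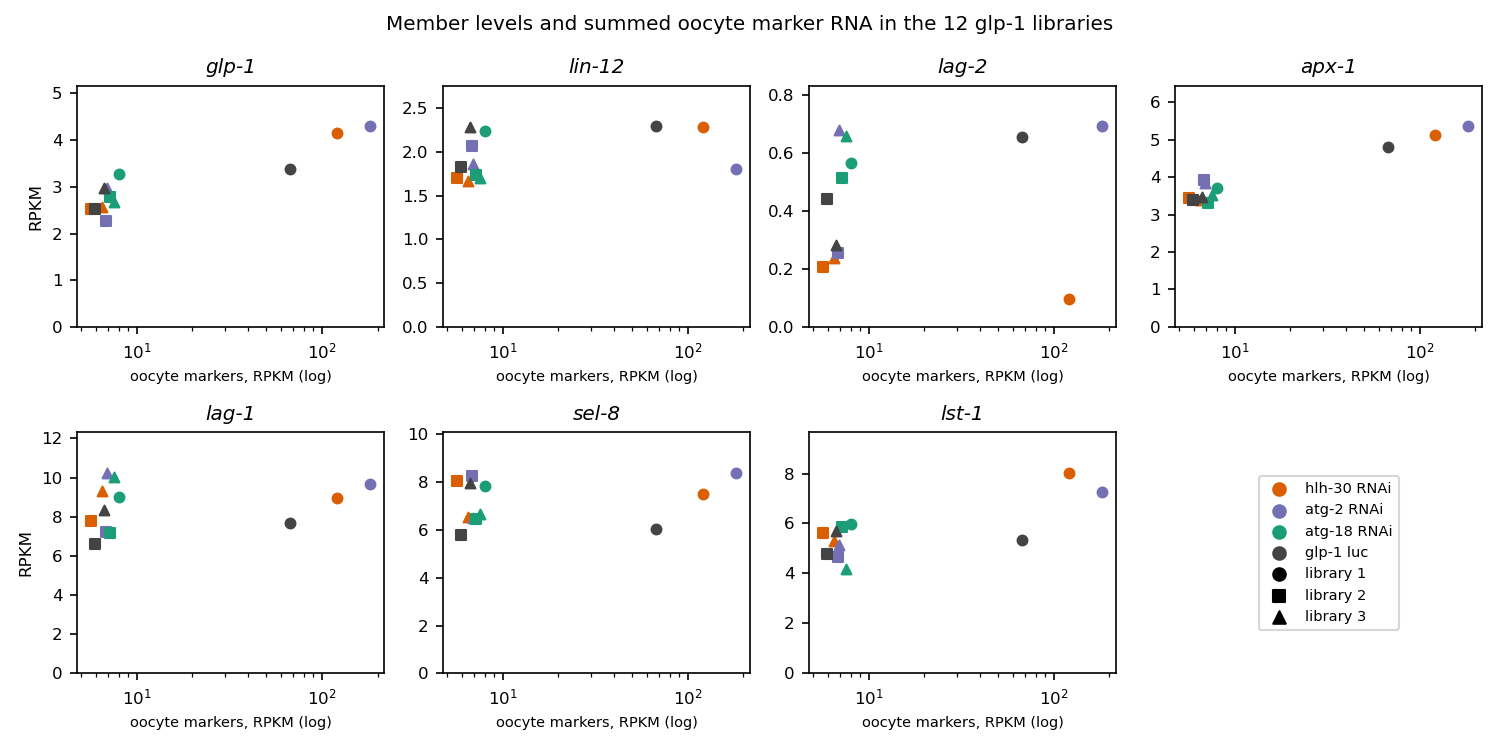
RPKM of each gene against the summed RPKM of 9 oocyte markers (log axis) in the 12 glp-1 libraries; colours are groups and shapes are libraries 1 to 3. The 3 libraries with 67.3 to 182 RPKM of oocyte markers hold the 3 highest glp-1 and apx-1 values.

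The genes whose levels most resembled each member were ranked by Pearson's r of log2(RPKM + 1), given as a description. Over all 15 libraries the closest were C49C3.7 and the condensin genes kle-2 and smc-4 for glp-1 (r = 0.999 for each), C50E3.12 for apx-1 (0.999), bath-1 for lst-1 (0.999), acs-13 for lag-1 (0.997), Y87G2A.13 for sel-8 (0.992), ceh-16 for lin-12 (0.990) and C29H12.2 for lag-2 (0.988). These values mostly reflect the gap between strains: of 13376 genes, the one ranked 1000th for glp-1 still had r = 0.996. Over the 12 glp-1 libraries, where that gap is absent, the closest were psf-1 for glp-1 (r = 0.964) and nasp-2 for apx-1 (0.967), followed for apx-1 by rnr-1 and cgh-1 (0.966 each). All 4 had lower means in glp-1 luc than in TU3401 luc. For psf-1 they were 1.32 RPKM in glp-1 luc and 120 RPKM in TU3401 luc, and for nasp-2 they were 2.87 RPKM in glp-1 luc and 886 RPKM in TU3401 luc. The closest to lag-1 were tag-38, ZK822.1 and lin-29 (r = 0.928, 0.927 and 0.923), which were higher in glp-1 luc than in TU3401 luc on average (lin-29 had 11.6 RPKM in glp-1 luc and 2.65 RPKM in TU3401 luc). For lin-12, sel-8 and lst-1 the closest were K04A8.10 (0.900), K07C5.13 (0.909) and F10D7.3 (0.911), and for lag-2, on few reads, C32C4.1 (0.888). These 12 libraries share groups and the libraries numbered 1 described above.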

How the data were processed

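RNA of whole worms was sequenced in 15 libraries. Per the submitters' processing notes, bcl2fastq and TopHat2 2.1.1 were used and the build named is GRCh38, a human build, so no coordinates are printed. No source used here names the counting tool, the annotation or the use of strand. The authors deposited RPKM values per library in 4 tables, together with, per the file headers, the authors' log2 fold change, p-value and false discovery rate, and a ranking score. The 3 glp-1 luc columns were the same in all 4 tables (0 values differed). Whole reads were recovered from the RPKM steps for 24620 of 24620 detected genes (tolerance 1e-08 reads) and used to describe depth and, for lag-2, to give ratios of read rates with counting intervals; no test across genes used them. Pathway means without each glp-1 luc library were added after seeing the data. The authors' normalization is relative: each library's RPKM depend on what else it holds.

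The planned test for counts gave way to the planned fallback for RPKM: limma 3.58.1 (R 4.3.3, mean-variance trend) on log2(RPKM + 1), for genes averaging at least 1 RPKM in the libraries fitted, called at a Benjamini-Hochberg p under 0.05. The fit was tested on simulated data. Comparisons with luc used the 6 libraries of their 2 groups, direct contrasts the 12 glp-1 libraries. Members and lists were chosen with earlier results of these data known. Named genes were the members, the RNAi targets and the genes most correlated with each member. Also named were the 2 called genes of largest log2 difference each way per pathway list. The genes sel-12, sup-17, fbf-1, fbf-2, dsl-1, dsl-6, ref-1 and the somatic gonad genes were named after their values were seen.

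Libraries of a group differed by more than sampling noise (chi-square per degree of freedom 6.41 to 22.0 over 15 pairs). Same-numbered libraries deviated together (r over 0.1 in all 3 pairs) for atg-2 RNAi against luc (0.402, 0.264 and 0.200) and in the 3 direct contrasts. This pairing was read from the data and not from the labels. The main fits, with their p-values and intervals, did not use it, and only the replicate block below did. Alternatives were a pseudocount of 0.1, no filter, a filter of 5 RPKM, no trend, scaling on neuron and muscle genes, 1 fit over all libraries, a replicate block, and leaving out libraries. Tables and plots used pandas 2.3.3 and matplotlib 3.10.9 under Python 3.11.15.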

Additional observations from a re-analysis of the deposited data

How the results depend on the processing

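Under every alternative run, the members tested in the comparison of glp-1 luc with TU3401 luc passed, and no member tested passed in the other comparisons. The count of 34 called pathway genes stayed within 1.5 times. With the replicate block, glp-1 luc differed from TU3401 luc by -4.16 for glp-1, and the block changed no call in any comparison. Scaling on neuron and muscle genes left osm-11 uncalled (difference 0.147, limma adjusted p = 0.264) and turned lst-2 (-1.25). The same scaling turned osm-7 (-1.50, now called lower), hlh-30 (-0.58), atg-2 (-0.39) and sid-1 (-1.26) in that comparison, where the last 3 had been called higher, and it changed the somatic gonad counts as given above. Members changed sign only between glp-1 groups, in differences that had not passed. On scaled libraries, the difference became -0.0395 for glp-1 and -0.0476 for apx-1 in hlh-30 RNAi against glp-1 luc, -0.0258 for sel-8 and -0.0978 for lst-1 in atg-18 RNAi against glp-1 luc. It became 0.0132 for lin-12 and 0.0219 for lag-1 in hlh-30 RNAi against atg-18 RNAi on the same setting. Without all libraries numbered 1, the difference became -0.0762 for glp-1 and -0.00122 for apx-1 in hlh-30 RNAi against glp-1 luc, -0.0547 for glp-1 and -0.0776 for lst-1 in atg-2 RNAi against glp-1 luc, 0.00114 for apx-1, -0.0458 for sel-8 and -0.0632 for lst-1 in atg-18 RNAi against glp-1 luc. It became -0.0697 for glp-1, -0.00236 for apx-1 and 0.000273 for lag-1 in hlh-30 RNAi against atg-18 RNAi, -0.0482 for glp-1 and -0.0144 for lst-1 in atg-2 RNAi against atg-18 RNAi on the same setting. Leaving out each library in turn gave ranges that crossed 0. For hlh-30 RNAi against glp-1 luc these were -0.151 to 0.121 for glp-1 and -0.132 to 0.156 for apx-1. For atg-2 RNAi against glp-1 luc these were -0.13 to 0.22 for glp-1 and -0.0869 to 0.184 for lst-1. For atg-18 RNAi against glp-1 luc these were -0.0977 to 0.0583 for glp-1, -0.172 to 0.0308 for apx-1 and -0.0725 to 0.143 for lst-1. For hlh-30 RNAi against atg-2 RNAi these were -0.207 to 0.157 for glp-1, -0.116 to 0.035 for lin-12, -0.273 to 0.0111 for apx-1, -0.182 to 0.0449 for lag-1, -0.16 to 0.0162 for sel-8 and -0.0306 to 0.293 for lst-1. For hlh-30 RNAi against atg-18 RNAi these were -0.135 to 0.138 for glp-1, -0.104 to 0.0772 for lin-12, -0.032 to 0.206 for apx-1 and -0.123 to 0.0905 for lag-1. For atg-2 RNAi against atg-18 RNAi these were -0.113 to 0.236 for glp-1, -0.0332 to 0.096 for lin-12, -0.0795 to 0.179 for lag-1 and -0.0906 to 0.181 for lst-1.

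The causes of these moves were not tested. With 3 libraries a group, small differences are not resolved. Depth limits lag-2 most, with 3 to 20 reads per glp-1 library, and it was tested between glp-1 groups only without the filter on low values or in the fit over all 15 libraries. The filter of 5 RPKM left 5 members tested between glp-1 luc and TU3401 luc and 3 between glp-1 groups.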
